A study of Homo sapiens with 6 samples.

Results

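Many human genes have a named antisense RNA, a transcript of the opposite strand that carries the gene's symbol followed by -AS and often a number. The antisense RNAs described here were selected on 2 criteria, a name of this form and a mean of at least 20 normalized counts over the 6 samples, which 291 of the 19823 genes in the table met. A further 212 genes with such a name lay below the mean and were left out. The mean is a measured value, so the levels of the members describe the choice and are not a result. The rule itself uses no value of the treatment comparison.

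RNA was sequenced from glutamatergic excitatory neurons (iNeurons) made from human WTc11 induced pluripotent stem cells, here 1 clonal line with doxycycline-inducible Neurogenin 2, which drives the differentiation, and with dCas9-KRAB, a repressor for CRISPR interference. RBM12, which encodes an RNA-binding protein, was knocked down by CRISPR interference in all 6 samples. The cells were of the parental line, with the beta-2-adrenergic receptor at its native, low level. The untreated group had 3 samples, and so did the group given isoproterenol, an agonist of that receptor that raises cAMP. Neither dose nor duration is in the labels, and no sample without the knockdown was analysed here.

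A transcript can reach its neighbour on the other strand in several ways. An antisense RNA that starts at the promoter of its sense gene is often the second product of a bidirectional promoter, whereas one that runs into the far end or the body of the sense gene can pair with its RNA, cross its transcription or act on its chromatin. Most antisense RNAs are long noncoding RNAs (lncRNAs) of low level. Among the targets of cAMP is the transcription factor CREB, which binds the cAMP response element (CRE) TGACGTCA or its shorter core TGACG. BDNF, a neurotrophin, is a classical CREB target, and its antisense RNA BDNF-AS is known for lowering BDNF.

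In GENCODE release 44 (GRCh38), 287 of the 291 members were lncRNAs and 4 were transcribed pseudogenes, and 20 now carry a name ending in -DT, for divergent transcript. The sense gene named by the prefix was in the table for 271 members, in each case on the opposite strand. For the other 20, among them OIP5-AS1, KRTAP5-AS1 and CBR3-AS1, no gene of the table carried the prefix as its name. In 129 pairs the 2 genes overlapped at their 5′ ends (heads), in 50 at their 3′ ends (tails), and in 60 one gene lay inside the other (nested). In 31 pairs the genes did not overlap and were transcribed away from each other (divergent), and RAB6C-AS1 lay over 5000 bases from RAB6C. The exons of both genes shared bases in 207 pairs.

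These shared bases limit what the counts can tell. The libraries were made with a directional kit, but whether the reads were counted by strand is not stated, and without it reads from an antisense RNA and from its partner in shared bases cannot be told apart. Over all genes on the opposite strand, 227 members shared exon bases, with a median of 7.95% of their own exon bases and at most 71.6%, and 15 shared 50% or more. Genes covered to at least 95% by exons of the opposite strand had a median of 13.1 normalized counts (82 genes), against 25.4 for genes covered by the same strand (38 genes) and 192 for genes with no shared exon base (13514 genes). This comparison does not settle the strand setting.

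The promoters of 2 pairs are shown because both of their genes are described below, and because they differ in layout. RefSeq windows of 300 bases (GRCh38.p14) ran from 250 bases before to 50 bases after a start site. By symbol they matched 208 members, and the sense gene for 222 of the 271 members whose sense gene was in the table. No window was found for IER3, PROX1, SEPSECS or SEPSECS-AS1. In 64 pairs a window of the antisense RNA overlapped one of the sense gene named by its prefix. The windows of ATP2B1-AS1 (chr12:89708705-89709004, plus strand) and ATP2B1 (chr12:89708789-89709088, minus strand) shared 216 bases, printed in capitals. Neither of these windows held the core, while a second ATP2B1 window, not printed (chr12:89709317-89709616, minus strand), held it once, 1 base before its start. Each printed window is written 5′ to 3′ on its own strand.
ATP2B1-AS1: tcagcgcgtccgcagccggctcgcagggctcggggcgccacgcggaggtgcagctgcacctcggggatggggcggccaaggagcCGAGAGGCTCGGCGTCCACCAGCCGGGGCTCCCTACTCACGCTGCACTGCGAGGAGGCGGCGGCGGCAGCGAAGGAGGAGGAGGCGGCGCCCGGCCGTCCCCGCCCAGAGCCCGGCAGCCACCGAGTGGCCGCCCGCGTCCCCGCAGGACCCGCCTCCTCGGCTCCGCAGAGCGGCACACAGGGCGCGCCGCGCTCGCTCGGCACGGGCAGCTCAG
ATP2B1: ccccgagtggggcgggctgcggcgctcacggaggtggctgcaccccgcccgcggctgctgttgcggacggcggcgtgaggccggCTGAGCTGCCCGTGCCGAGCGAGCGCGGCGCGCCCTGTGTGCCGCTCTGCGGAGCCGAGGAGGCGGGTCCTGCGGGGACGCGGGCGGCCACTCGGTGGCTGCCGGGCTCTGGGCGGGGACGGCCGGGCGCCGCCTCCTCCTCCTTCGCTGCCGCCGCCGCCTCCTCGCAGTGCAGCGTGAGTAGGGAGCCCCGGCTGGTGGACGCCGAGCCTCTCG

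BDNF-AS starts far from BDNF and meets it tail to tail. Its window (chr11:27506602-27506901, plus strand) held the core TGACG once, 68 bases before the start, and so did 1 of the 5 windows of BDNF (chr11:27701572-27701871, minus strand), 47 bases before the start. The core is in capitals, and in the BDNF window it lies on the other strand and reads CGTCA.
BDNF-AS: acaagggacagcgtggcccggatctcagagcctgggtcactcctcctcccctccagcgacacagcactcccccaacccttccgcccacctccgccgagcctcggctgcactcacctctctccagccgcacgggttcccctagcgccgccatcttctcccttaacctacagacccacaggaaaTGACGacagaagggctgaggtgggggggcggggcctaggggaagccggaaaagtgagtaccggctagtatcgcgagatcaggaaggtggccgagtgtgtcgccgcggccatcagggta
BDNF: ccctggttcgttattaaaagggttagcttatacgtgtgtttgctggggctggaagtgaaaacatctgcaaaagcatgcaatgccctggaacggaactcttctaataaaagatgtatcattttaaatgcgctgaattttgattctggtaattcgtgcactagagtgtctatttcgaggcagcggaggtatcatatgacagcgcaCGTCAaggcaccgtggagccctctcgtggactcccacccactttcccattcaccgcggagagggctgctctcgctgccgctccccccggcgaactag

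Both strands were searched, and every full CRE also holds the core. The full CRE was in no window of the 18 genes with a window among the 12 members named for a call in the antisense RNA or for a large called change in the sense gene, together with their sense genes, and the core was in 8 of their 30 windows (26.7%), which belong to 7 of the genes. For comparison, 1.85% of all 35116 RefSeq windows held the full CRE and 24.6% the core. The corresponding values were 3.14% and 35.3% for the 255 windows of the members and 4.34% and 30.8% for the 415 windows of genes named by a member's prefix. Counted by gene, 40.4% of 208 members and 42.1% of 233 genes named by a prefix had a window with the core. A gene with several windows has more chances to hold it, and no share by gene was taken over all genes. The shares by gene therefore cannot be set beside the 24.6% of windows. All of these are matches of letters, and binding was not measured.

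Above the chosen mean of 20, the antisense RNAs were mostly rare, and their levels describe that choice. Together they took between 0.269% and 0.282% of the counts of a sample. The median member had a mean of 86.1 normalized counts; 106 members lay between 20 and 50, 100 between 50 and 200, and 85 at 200 or above. At the lower edge, PPP1R12A-AS1 (20.05) and FRY-AS1 (20.1) were just inside and BBOX1-AS1 (19.8) and ZNF350-AS1 (19.7) just outside. Per kilobase of exon, the median was 20.4 normalized counts for the members and 119 for the sense genes. The limit on the mean applied to the antisense RNA of a pair only, so the ratios of the pairs depend on it as well. In 48 of 266 pairs with both genes tested the antisense RNA had the higher level per kilobase. The ratio of antisense to sense level per kilobase had a median of 0.207, and 80% of pairs lay between 0.0266 and 1.88. Its median was 0.170 for head-to-head, 0.252 for nested, 0.385 for tail-to-tail and 0.136 for divergent pairs.

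**Figure D1:**
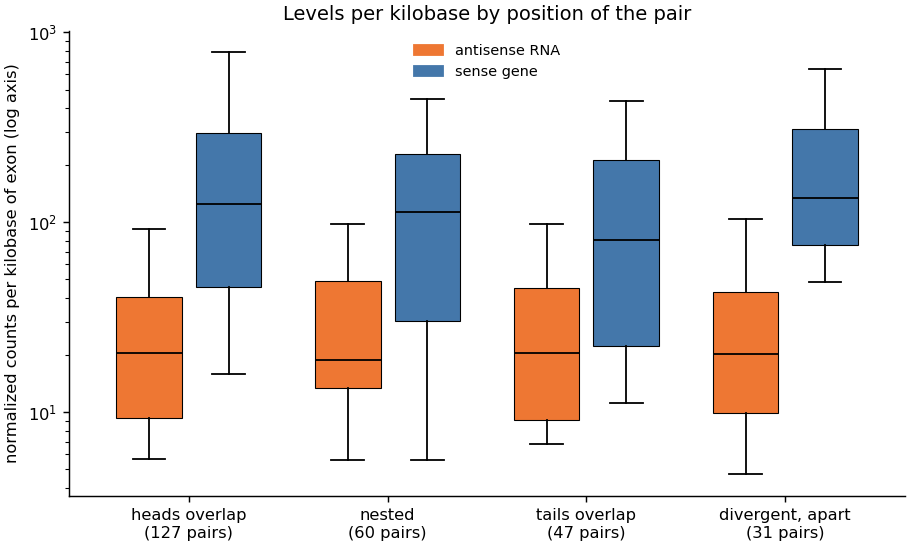
Levels of antisense RNAs (orange) and their sense genes (blue) in normalized counts per kilobase of exon, on a log axis, averaged over the 6 samples and grouped by the position of the pair. Boxes span the quartiles with the median as a line, and whiskers run from the 10th to the 90th percentile. The median antisense RNA lies below the median sense gene in each of the 4 positions. Only the antisense RNAs were chosen at a mean of at least 20.

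The most abundant members had small differences. FGD5-AS1, a widely expressed lncRNA, had 3398, 3455 and 3328 normalized counts in untreated replicates 1, 2 and 3, and 3479, 3351 and 3272 with isoproterenol. OIP5-AS1, also known as Cyrano, had 2482, 2521 and 2289 untreated and 2493, 2482 and 2148 with isoproterenol. The groups overlapped for both RNAs. The difference (isoproterenol minus untreated, on the log2(normalized count + 1) scale, as all changes below) was -0.01 (SE 0.04) for FGD5-AS1 and -0.04 (SE 0.06) for OIP5-AS1, with limma adjusted p-values of 0.972 and 0.927. KRTAP5-AS1 (mean 1482; change 0.04, SE 0.06), BOLA3-AS1 (mean 1399; change 0.06, SE 0.06) and OTUD6B-AS1 (mean 1278; change -0.05, SE 0.05) also missed the threshold. SLC9A3-AS1, with a mean of 1773, is described below.

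Across the 291 members, no antisense RNA passed an adjusted p of 0.05 in limma, where 0.0165% of the 18130 genes tested did (3 genes). All 291 passed the filter on low counts and were tested. The smallest adjusted p was 0.413. At an unadjusted p under 0.05, limma gave 21 members, or 7.22%, beside 7.68% of all genes, and edgeR and DESeq2 without pairing called none either. Samples with the same replicate number deviated together (correlations 0.269, 0.493 and 0.388), and the numbers were taken to pair them. This pairing is inferred from these data, and the fit with replicate number as a block is given beside the first. With the block, 5 members passed (1.72%), 1 higher and 4 lower, beside 4.88% of all genes (2.82% higher and 2.06% lower). The edgeR test with the block called 6 members, the further one being RNF144A-AS1, beside 5.39% of all genes. Both shares of members lay below the background, as did the 11.7% of members (34) at an unadjusted p under 0.05 in limma with the block, beside 16.2% of all genes. RNF144A-AS1 had 214, 158 and 222 normalized counts untreated and 306, 180 and 257 with isoproterenol, with overlapping groups, a change of 0.30 and an adjusted p of 0.0458 in edgeR and 0.0660 in limma with the block.

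The share of genes called was larger at higher levels, and the members are mostly rare. Among all genes, the share called with the block was 0.723% at means of 20 to 50, 2.67% at 50 to 200 and 7.74% at 200 or more, while the members had 0 of 106, 1 of 100 and 4 of 85 called. The members stood on both sides of 0. With isoproterenol 145 were higher and 146 lower, and the median change was -0.0015, against 0.0015 over all genes tested. Changes ran from -0.89 in CBR3-AS1 to 0.66 in GPR158-AS1. In 36 members (12.4%) the groups did not overlap, with isoproterenol higher in 17 and lower in 19, and 12.9% of all genes had no overlap.

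**Figure D2:**
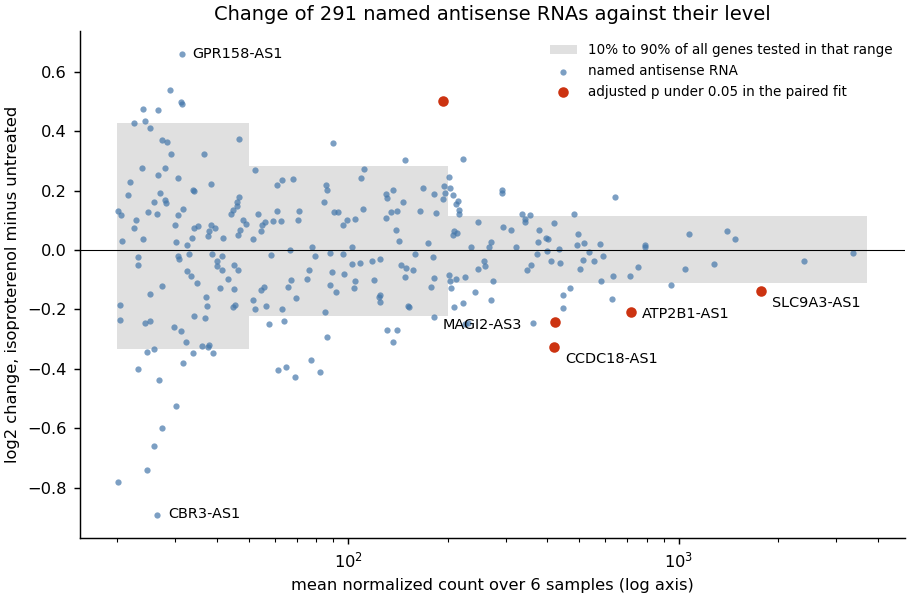
Change of each of the 291 antisense RNAs (log2, isoproterenol minus untreated) against its mean normalized count on a log axis. Red points passed an adjusted p of 0.05 with the block in limma, and the grey bands hold the middle 80% of all genes tested in 3 ranges of level. The 4 labelled red points lie below 0 and have means of 420 to 1773, and the widest changes on both sides, 0.66 and -0.89, belong to RNAs with means of 31.4 and 26.4.

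Of the 5 members called with the block, the 4 lower ones are described here. ATP2B1-AS1 (ENSG00000271614, chr12:89708959-89712590, plus strand) and ATP2B1, which encodes a calcium pump of the plasma membrane, both fell with the block. The antisense RNA had 739, 816 and 754 normalized counts untreated and 630, 691 and 676 with isoproterenol. ATP2B1 had 7569, 7329 and 7485 untreated and 6848, 6841 and 6568 with isoproterenol. In neither gene did the groups overlap. ATP2B1-AS1 fell by 0.21 on the log2 scale (SE 0.06 with the block; limma adjusted p = 0.453 without and 0.0150 with it), and ATP2B1 fell by 0.14 (SE 0.02; 0.273 and 6.0e-06). The log ratio moved by -0.07 (SE 0.09, limma adjusted p = 0.889). In 2 of the 266 pairs, this one included, both genes passed with the block.

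CCDC18-AS1 (ENSG00000223745, chr1:93262186-93346025, minus strand) had 459, 548 and 397 normalized counts untreated and 337, 377 and 399 with isoproterenol. The groups overlapped, since isoproterenol replicate 3 exceeded untreated replicate 3, and pairs 1, 2 and 3 gave -0.44, -0.54 and 0.01. The change was -0.33 (SE 0.08 with the block), with a limma adjusted p of 0.456 without the block and 0.00419 with it. Its sense gene CCDC18 was rarer, between 39.3 and 55.4 in all samples, and changed by -0.05 (SE 0.22), with overlapping groups.

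MAGI2-AS3 (ENSG00000234456, chr7:79452877-79471208, plus strand), a lncRNA known to be reduced in several cancers, had 407, 480 and 485 normalized counts untreated and 384, 402 and 370 with isoproterenol. All isoproterenol values lay below all untreated values. It fell by 0.24 (SE 0.08 with the block; limma adjusted p = 0.528 without and 0.0393 with it). MAGI2, a scaffold protein of synapses whose start lies 790 bases from that of MAGI2-AS3 in a head-to-head overlap, had 1865 to 2002 untreated and 1844 to 1896 with isoproterenol and changed by -0.04 (SE 0.05).

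SLC9A3-AS1 (ENSG00000225138, chr5:473236-480884, plus strand) had 1766, 2021 and 1782 normalized counts untreated and 1574, 1829 and 1665 with isoproterenol. The groups overlapped, with isoproterenol replicate 2 above untreated replicates 1 and 3, yet each pair fell, by 0.17, 0.14 and 0.10. The change was -0.14 (SE 0.04 with the block; limma adjusted p = 0.638 without and 0.0195 with it). SLC9A3, a sodium-proton exchanger of epithelia, was near the limit of detection, with 18.8, 17.4 and 14.5 untreated and 8.0, 12.7 and 4.1 with isoproterenol. Its groups did not overlap, its change was -1.06 (SE 0.41), and it missed the threshold with the block (limma adjusted p = 0.141). SLC9A3-AS1 lies inside SLC9A3 and shares 830 of its 4731 exon bases with the other strand.

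**Figure D3:**
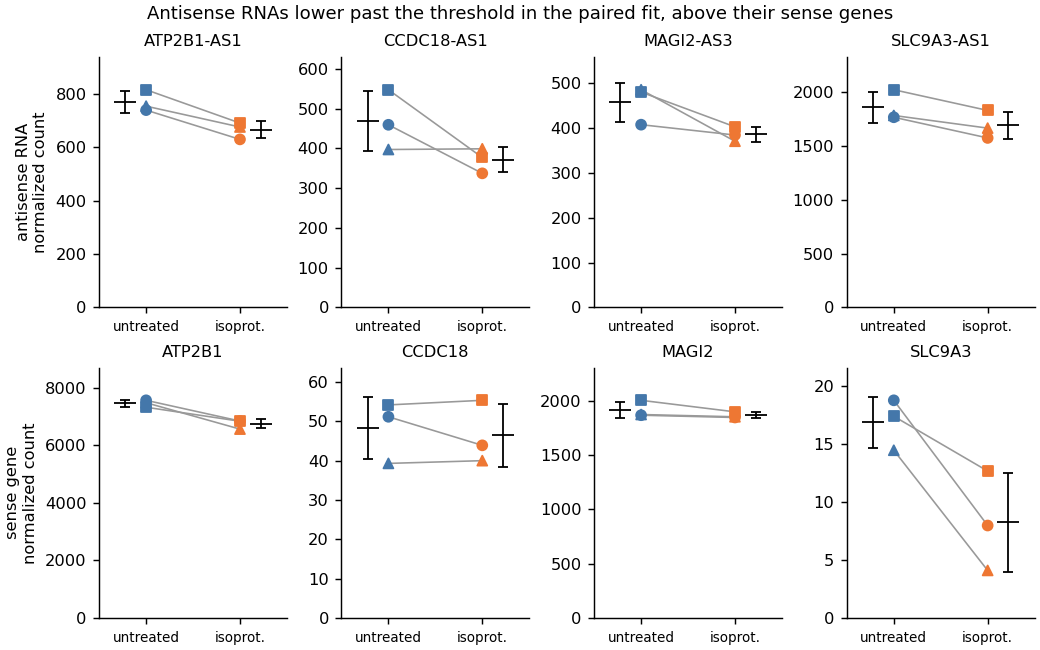
Normalized counts of the 4 antisense RNAs that were lower past the threshold with the block (upper row) and of their sense genes (lower row), in untreated samples (blue) and samples with isoproterenol (orange). Lines join samples of the same replicate number (circle 1, square 2, triangle 3), black marks give the mean and SD (n = 3), and each axis starts at 0. ATP2B1-AS1 and ATP2B1 are lower with isoproterenol in each pair.

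None of these 4 calls held each time a pair of samples was left out of the fit with the block. ATP2B1-AS1 and CCDC18-AS1 passed when pair 3 was left out (0.0424 and 1.64e-05), MAGI2-AS3 when pair 1 was (0.0156), and SLC9A3-AS1 in none, with 0.168, 0.116 and 0.0568. ATP2B1 passed in all 3. With single samples left out of the fit without the block, the change of CCDC18-AS1 was -0.21 without untreated replicate 2, and that of SLC9A3-AS1 was -0.07 without that sample and -0.09 without isoproterenol replicate 1. With the block and pair 3 left out, CCDC18-AS1 changed by -0.49.

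Sense genes passed the test with the block in larger number than antisense RNAs, and they were also more abundant. No sense gene passed in limma without the block. With it, 24 of 263 tested did (9.13%), 15 higher and 9 lower, beside the 4.88% of all genes given above, and the median sense gene had a mean of 695 normalized counts. The groups did not overlap in 43 of the 263 (16.3%), beside 12.9% of all genes. In 11 of these 24 pairs the antisense RNA had a change of the same sign, and in 13 the opposite one. The antisense RNA passed as well in 2 of the pairs, among them ATP2B1-AS1 beside ATP2B1. The antisense RNAs of the 24 pairs had a median of 115 normalized counts and their sense genes one of 3059. Among the pairs outside the 8 largest changes, and chosen after their values were seen, OXCT1, an enzyme of ketone body use, fell by 0.20 with the block (SE 0.03, limma adjusted p = 1.5e-08) beside OXCT1-AS1 at a mean of 23.2 normalized counts (change -0.40, SE 0.31). PRKAR2A, a regulatory subunit of the cAMP-dependent kinase, fell by 0.11 (SE 0.03, 0.0157) beside PRKAR2A-AS1 at 30.8 (change -0.03, SE 0.29).

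BDNF had 323, 211 and 426 normalized counts untreated and 466, 303 and 662 with isoproterenol. The groups overlapped, because replicate 2 was low and replicate 3 high in both, and each pair rose by a similar amount, 0.53, 0.52 and 0.63. The change was 0.56, with an SE of 0.42 without the block and 0.08 with it, and the limma adjusted p was 0.820 and 3.8e-08. BDNF-AS (ENSG00000245573, chr11:27506830-27698231, plus strand) had 44.9, 62.9 and 24.8 untreated and 25.9, 48.4 and 26.7 with isoproterenol. Replicate 2, the lowest for BDNF, was the highest for BDNF-AS in both groups. Its pairs moved by -0.77, -0.37 and 0.10, a change of -0.35 (SE 0.25 with the block, limma adjusted p = 0.538) that missed the threshold. Leaving 1 sample out of the fit without the block moved both genes. BDNF was 0.29 without untreated replicate 2 or isoproterenol replicate 3 and 0.85 without isoproterenol replicate 2, while with the block and a whole pair left out it stayed between 0.53 and 0.58. BDNF-AS ran from -0.70 without untreated replicate 3 to -0.05 without untreated replicate 2.

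The log ratio tests such a difference directly. Over 6198 pairs of opposite-strand genes that overlap or lie within 5000 bases, limma on the log ratio called 4 (0.0645%) without the block and 76 (1.23%) with it. Among the 265 pairs of a member with its sense gene that met this distance, none passed without the block (smallest adjusted p = 0.547; 19 at an unadjusted p under 0.05, where all pairs had 7.57%). With the block 1 passed, BDNF-AS to BDNF, whose ratio changed by -0.91 (SE 0.26, limma adjusted p = 0.0496; 0.768 without the block). The ratio of normalized counts was 0.139, 0.298 and 0.058 untreated and 0.056, 0.160 and 0.040 with isoproterenol. It was lower with isoproterenol in each pair, while the groups overlapped. Without pair 1 or pair 2 the adjusted p was 0.433 and 0.271, and without pair 3 it was 0.0489. BDNF-AS shares 988 of its 12421 exon bases with BDNF.

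IER3, an immediate early gene, had 77.3, 61.0 and 66.2 normalized counts untreated and 118, 94.6 and 147 with isoproterenol, with no overlap, and rose by 0.79 (SE 0.16 with the block, limma adjusted p = 0.00028). IER3-AS1, which shares 440 of its 882 exon bases with IER3, stayed between 16.4 and 28.2 in all samples (change 0.04, SE 0.30 with the block). RARA, a retinoic acid receptor, had 297, 316 and 319 untreated and 345, 420 and 499 with isoproterenol and rose by 0.42 (SE 0.08, limma adjusted p = 0.00011). RARA-AS1, nested in RARA, had 83.2 to 106 untreated and 81.0 to 95.8 with isoproterenol (change -0.07, SE 0.16). Both antisense RNAs overlapped between groups and missed the threshold.

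PROX1, a homeobox transcription factor, had 409, 388 and 388 normalized counts untreated and 466, 503 and 489 with isoproterenol and rose by 0.30 (SE 0.07 with the block, limma adjusted p = 0.0044), again with no overlap. PROX1-AS1 was 102 to 112 untreated and 112 to 123 with isoproterenol (change 0.14, SE 0.14, adjusted p = 0.720). ARRDC3, an arrestin-domain protein that acts on beta-2-adrenergic receptor trafficking, had 556, 821 and 629 untreated and 409, 545 and 367 with isoproterenol. It fell by 0.60 (SE 0.07 with the block, limma adjusted p = 1.1e-11), below all untreated values in each isoproterenol sample. ARRDC3-AS1, whose promoter window shares 251 bases with 1 of ARRDC3, had 44.5 to 63.1 untreated and 46.1 to 49.9 with isoproterenol (change -0.17, SE 0.21).

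SEPSECS, an enzyme of selenocysteine synthesis, rose by 0.39 with the block (SE 0.12, limma adjusted p = 0.0367), and FGD5, an exchange factor for CDC42, fell by 0.29 (SE 0.08, 0.0108). SEPSECS-AS1, which starts 91 bases from SEPSECS in the other direction, changed by 0.12 (SE 0.33) at 11.4 to 31.9 normalized counts. FGD5-AS1, described above, stood at 11.4 times the level of FGD5 per kilobase. Of these sense genes, ARRDC3 and BDNF passed with each pair left out in turn. IER3, RARA, PROX1, SEPSECS and FGD5 missed the threshold without 1 pair or more, with adjusted p-values of up to 0.0665, 0.0628, 0.0694, 0.335 and 0.0793. In the fit without the block, FGD5 changed by -0.15 without untreated replicate 2, -0.175 without isoproterenol replicate 3 and -0.45 without isoproterenol replicate 2.

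**Figure D4:**
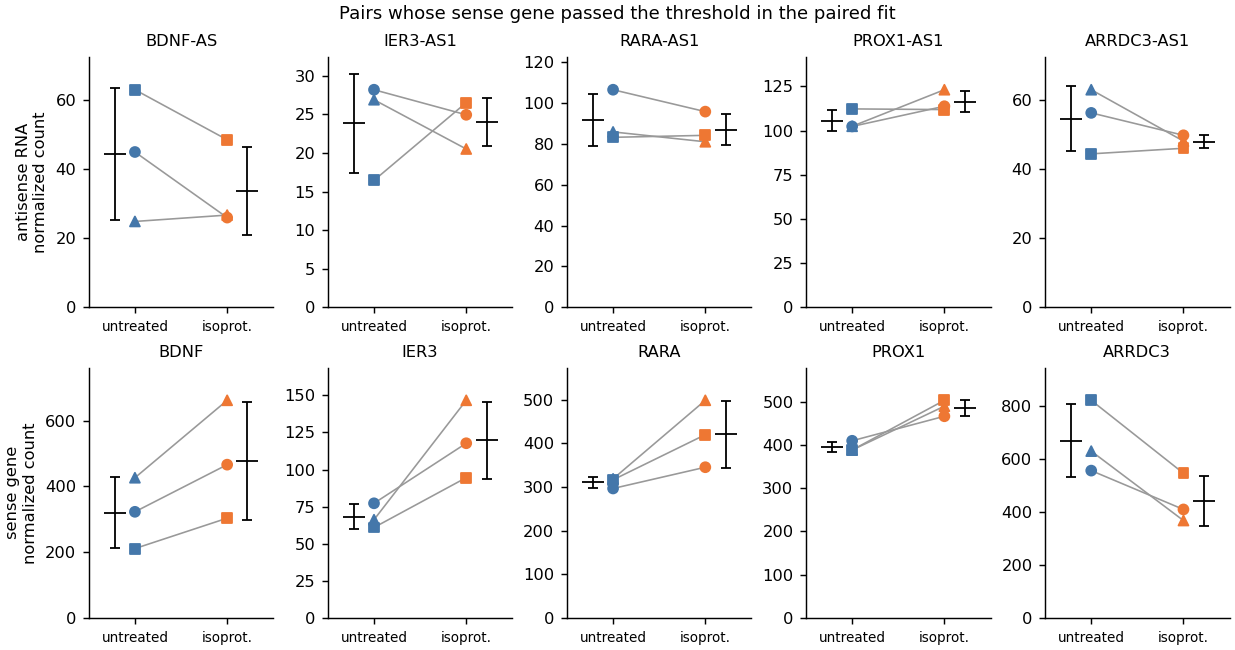
Normalized counts of 5 of the pairs whose sense gene had a large called change with the block. They are drawn as in the plot of the 4 called antisense RNAs, with the antisense RNA above and the sense gene below. The 5 are not the largest changes, since SEPSECS (0.39) changed more than PROX1 (0.30) and is not drawn. BDNF, IER3, RARA and PROX1 are higher and ARRDC3 lower with isoproterenol in each pair, while the antisense RNAs drawn overlap between the groups.

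Over all 266 pairs, both genes were higher in 71, both lower in 59 and moved apart in 136. The share with the same sign was 48.9%, where it was 50.1% over the 6198 opposite-strand pairs. Pearson's r between the changes was 0.03 over the 266 pairs, and 0.19 over 105 pairs with both means at 100 or more. The pairs share the same 6 libraries and are not independent, so these values only describe the table. By position, r was 0.13 for 127 head-to-head pairs, -0.04 for 60 nested pairs, -0.11 for 47 tail-to-tail pairs and 0.05 for 31 divergent pairs.

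**Figure D5:**
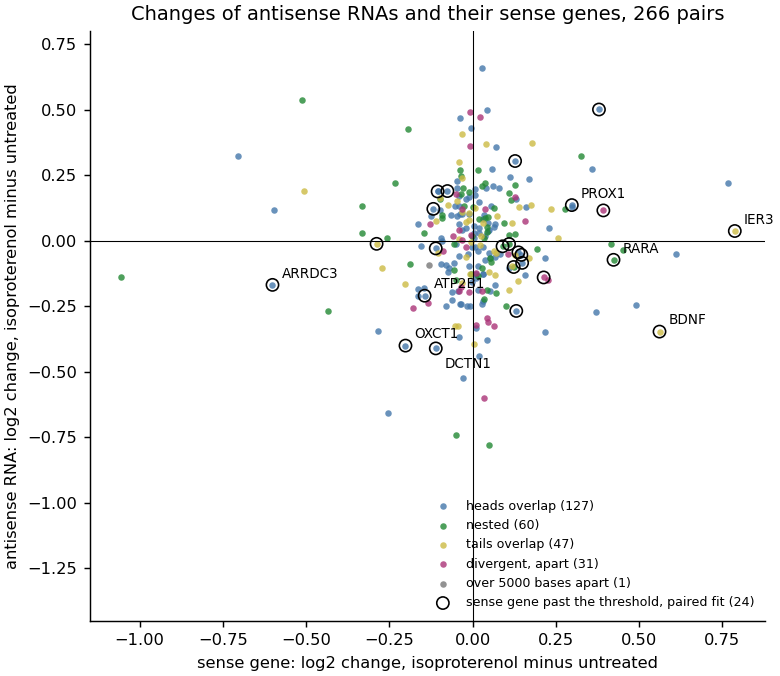
Change of the antisense RNA against change of its sense gene (log2, isoproterenol minus untreated) for 266 pairs, coloured by position. Circles mark the 24 pairs whose sense gene passed the threshold with the block. Points lie on all sides of 0, with 71 pairs higher and 59 lower in both genes.

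Among the antisense RNAs whose groups did not overlap, the largest differences were in rare ones, and the values here only describe that choice. CBR3-AS1 had 42.8, 35.8 and 25.9 normalized counts untreated and 17.0, 18.5 and 18.5 with isoproterenol (change -0.89, SE 0.29 and adjusted p = 0.0581 in limma with the block). Next among the lower ones were TMSB15B-AS1 (-0.66), DLG5-AS1 (-0.60), DCTN1-AS1 (-0.41), RALY-AS1 (-0.37), PTPRD-AS2 (-0.32), RASAL2-AS1 (-0.29) and CKMT2-AS1 (-0.27). GPR158-AS1, antisense to a G protein-coupled receptor of neurons, had 15.7, 27.1 and 31.0 untreated and 36.9, 33.4 and 44.1 with isoproterenol (change 0.66, SE 0.27 with the block). Other higher ones were LCMT1-AS1 (0.49), USP46-AS1 (0.47), FUT8-AS1 (0.27), BASP1-AS1 (0.25), C1RL-AS1 (0.24) and GRM3-AS1 (0.22). None of the antisense RNAs named in this group passed with the block. DCTN1, a dynactin subunit, fell by 0.11 with the block (SE 0.02, limma adjusted p = 6.2e-05) beside DCTN1-AS1.

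Antisense RNAs with a role known from other work mostly missed the threshold. BACE1-AS, which overlaps the beta-secretase gene BACE1 over much of its length, had 286, 299 and 270 normalized counts untreated and 275, 262 and 258 with isoproterenol (change -0.10, SE 0.09 with the block). Of its 4722 exon bases, 3037 are exonic on the other strand. PINK1-AS, antisense to a mitochondrial kinase, had 184 to 217 untreated and 215 to 235 with isoproterenol (0.15, SE 0.10). MAPT-AS1 had 164 to 201 untreated and 196 to 232 with isoproterenol (0.19, SE 0.11), while MAPT, which encodes tau, fell by 0.08 with the block (SE 0.01, limma adjusted p = 0.00011; change of -0.03 in the fit without the block when untreated replicate 2 was left out). ZEB1-AS1 had 404, 403 and 371 untreated and 334, 390 and 277 with isoproterenol, a change of -0.25 at an adjusted p of 0.0565 with the block. NR2F1-AS1 (0.32), TTN-AS1 (0.19), GABPB1-AS1 (-0.09), NNT-AS1 (-0.09), PCBP1-AS1 (0.05), PSMG3-AS1 (0.02) and THAP9-AS1 (0.01) had overlapping groups and missed the threshold in both fits.

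The measurements above rest on bulk RNA, in which fewer cells of a type and less RNA per cell cannot be told apart. Glutamatergic neuron markers were present, 10 of 10 listed, with SLC17A6 at 13524 and STMN2 at 65418 normalized counts on average, whereas TUBB3 stood at 79.4 and NEUROD1 at 7.90, and their sum was 153356 to 157063 untreated and 154251 to 159563 with isoproterenol. Of markers of other cells, 3 of 3 of inhibitory neurons, 2 of 5 of astrocytes, 2 of 5 of pluripotent cells and 1 of 4 of dividing cells were analysed, and none of these was at 0. The inhibitory sum was 55.3 to 59.99 untreated and 66.9 to 79.0 with isoproterenol, without overlap. Its 3 genes differed in direction, with group means of 16.7 and 28.4 for GAD1, 21.9 and 30.9 for GAD2 and 19.1 and 14.6 for SLC32A1, and none passed in limma with or without the block. The astrocyte sum was 160 to 175 and 134 to 157, also without overlap, the pluripotency sum 19.4 to 19.8 and 14.4 to 28.8, and CCNB1, the marker of division, 112 to 147 and 123 to 145. Their part in the results was not tested. RBM12, the targeted gene, had 244, 279 and 267 untreated and 195, 238 and 233 with isoproterenol (change -0.25, SE 0.11, limma adjusted p = 0.607, and 0.131 with the block), and the knockdown itself could not be checked within these samples. The reads recovered in the genes of the table numbered 18116816 to 21488793 per sample. With isoproterenol replicate 2 left out, the count of all genes called without pairing went from 3 to 67 and that of members from 0 to 1.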

How the data were processed

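RNA-seq was analysed for 6 samples, 3 untreated and 3 with isoproterenol, grouped and numbered by their titles. The authors selected poly(A) RNA, used a directional library kit, aligned reads to GRCh38 with STAR, counted them per gene with featureCounts and normalized with DESeq2; versions, annotation release and strand setting are not given in the sources used here. The deposited signal is a read count divided by 1 size factor per sample (0.867 to 1.033). Each column is made of whole multiples of 1 step, which gave whole reads for 100% of values (within 0.1), 18116816 to 21488793 per sample. Precision is limited by the 3 replicates. It was lowest for members at 20 to 50 normalized counts, with a median SE of 0.27 in limma without pairing. The labels do not say that replicates are separate cultures, so p-values measure the spread between these samples only.

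Genes with more than 5 reads in at least 4 samples were kept (18130; 1693 removed). limma 3.58.1 (R 4.3.3; intensity trend, robust) was fitted to log2(normalized count + 1) over all genes, with Benjamini-Hochberg adjustment. Same-numbered samples deviated together (correlations 0.269, 0.493 and 0.388 across 11587 genes whose mean was 100 or more), so the numbers, taken from the titles, were held to pair the samples, and the fit with replicate number as a block is printed beside the main one. edgeR 4.0.16 and DESeq2 1.42.0 on the recovered reads, 2 other scalings, a pseudocount of 5, other filters and leaving out each sample were the alternatives. Log ratios of opposite-strand pairs within 5000 bases were fitted likewise, with the variance trend on the lower of both levels. Fits of limma and edgeR were run on simulated counts that held no replicate effect, so that run does not test the block on paired samples. Positions came from GENCODE 44, where 19742 of 19823 identifiers (99.6%) were found, and promoter sequences from RefSeq.

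Named are members called with or without the block, the 8 largest rises and falls among those with non-overlapping groups, the 6 most abundant, the 8 whose called sense gene changed most, the 2 on each side of the mean of 20, and a list with known roles. The rule for members uses no value of the treatment comparison, but the rule and the lists were chosen with earlier results of these data known. Single results on a few of the genes that met these rules are not reported here.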

Additional observations from a re-analysis of the deposited data

How the results depend on the processing

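The count of called members was 0 in limma and 0 in edgeR and DESeq2 without pairing. It was 0 under both other scalings, a pseudocount of 5, no filter and a filter on a mean of 50. Among members with a mean of at least 50, a subset of the same limma fit, 0 was fixed in advance. Among every antisense RNA past the filter it was 0 as well. With the replicate block the count was 5, also 5 in each of these 2 sets, and 6 with the block in edgeR. Leaving out 1 sample gave 0 to 1, and the block with 1 pair left out, an alternative chosen after seeing the data, gave 2, 3 and 2. All genes called numbered 3 in limma and 3 in edgeR on the recovered reads, 885 with the replicate block, 977 with the block in edgeR, 21 in DESeq2, 2 to 67 with 1 sample left out (most without isoproterenol replicate 2), and 531, 665 and 456 with the block and pair 1, 2 or 3 left out. Opposite-strand pairs called numbered 4, 76 with the replicate block, 8 with a filter on a mean of 50, 0 to 16 with 1 sample left out (16 without isoproterenol replicate 2, 0 when untreated replicate 1 was dropped), and 24, 56 and 28 with the block and 1 pair left out. Among pairs with overlapping bodies 0 were called, and 19 with the block (added after seeing the data). The cause of these shifts was not tested.

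The median change of the members, -0.00147, was -0.0114 with a filter on a mean of 50 and ran from -0.0291 (without untreated replicate 3) to 0.00148 with 1 sample left out. Over 56 genes named, 795 values under the alternatives kept sign and side of the threshold, 63 passed it newly and 16 changed sign. None of the 56 passed in limma without pairing, so a change of sign could only fall in a gene that missed the threshold there. With 1 sample left out, CCDC18 ran from -0.191 to 0.0445, FGD5-AS1 from -0.0352 to 0.00911, IER3-AS1 from -0.199 to 0.172, KRTAP5-AS1 from -0.0062 to 0.0967, OIP5-AS1 from -0.0786 to 0.0344, PSMG3-AS1 from -0.00885 to 0.0453, RARA-AS1 from -0.143 to 0.0375, SEPSECS-AS1 from -0.219 to 0.487 and THAP9-AS1 from -0.0606 to 0.0828. SEPSECS-AS1 was -0.00591 in edgeR. For members at 20 to 50 normalized counts the median SE was 0.27 in limma without pairing, against 0.09 at 200 or more. Changes of the rarer members that were small beside this SE could not be told from 0 in that fit. The source of the spread was not tested.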

Other observations

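Other classes of RNA named after a neighbouring gene were counted in the same fits. Of 83 divergent transcripts (names ending in -DT), 77 were tested and 2 passed with the block in limma (2.60%), beside 4.88% of all genes. LHX1-DT rose by 0.18 (mean 1049, adjusted p = 0.0164), and the median change of the class was -0.03. Of 21 intronic transcripts (-IT) 14 were tested, and of 5 overlapping transcripts (-OT) 4. None of these passed in limma with the block, with 2 and 1 at an unadjusted p under 0.05 in that fit, where 16.2% of all genes were, and edgeR with the block called none. The 212 antisense RNAs below a mean of 20 had 130 tested, 0 called by limma or edgeR with the block (8, or 6.15%, at an unadjusted p under 0.05 in limma with the block, beside the same 16.2%) and a median change of -0.06.

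Genes that handle duplex and nascent RNA, a list of 34 genes analysed such as DICER1, the ADAR editing enzymes and subunits of the nuclear exosome, had 2 called with the block in limma (5.88%), near the 4.88% of all genes. AGO2, an Argonaute protein of RNA silencing, rose by 0.15 (adjusted p = 0.0161), and MTREX, the helicase that feeds RNA to the exosome, fell by 0.13 (0.0334). The median change of the list was 0.0015, as over all genes. These 3 genes were named after their values were seen.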
